A study of Homo sapiens with 6 samples.

Results

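Introns longer than 50 kb were followed in U2OS cells, a human osteosarcoma line, in which doxycycline switches on TDP-43 fused to the fluorescent protein Clover, with its nuclear localization signal mutated (TDP-43-mNLS-Clover). An intron entered the set when its start and end in the deposited junction table lay over 50 kb apart and it had at least 10 spliced reads over the 6 libraries. Its cluster, the group of introns linked by shared splice sites, also needed at least 10 reads in every library. The rule gave 3791 introns, in 1953 of the 35898 tested clusters, out of 144620 tested introns and 153462 deposited ones. The aggregates group held cells sorted for Clover aggregates 48 h after transfection with 50 nM fibril seeds of the recombinant TDP-43 low-complexity domain (LCD). The diffuse group held cells sorted for diffuse Clover 48 h after a mock transfection with storage buffer. Both groups expressed the induced transgene, so neither represents cells with the endogenous protein alone, and seeding, sort gate and aggregate state cannot be told apart. Each group had 3 polyA-selected, stranded RNA-seq libraries, which the series' design calls independent biological replicates, and all 6 carried the same batch label.

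In a long intron the donor and acceptor sites are made far apart in time by the polymerase, and many inner exons, first exons and last exons can compete for the same distal partner. TDP-43, encoded by TARDBP, is an RNA-binding protein that binds UG-rich stretches, mostly in introns, and represses unannotated exons there. Loss of TDP-43 in mouse brain is known to lower transcripts with very long introns. Long introns are common in genes of adhesion, synapse and cytoskeleton, and the first intron of a gene is often its longest.

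The junctions at issue can be read directly from the transcripts. Each line below gives the last 15 bases of the exon before an intron in capitals and the first 15 bases of the exon after it in lower case, 5′ to 3′, from GENCODE 29 transcripts in which these bases are coding. The pairs were chosen because both exons upstream splice to the same downstream exon, so that the capitals alone tell the long intron from the shorter one inside it.
SEPT9 long: ACTCCAGTGGCCCAGccttgaaaagatctt
SEPT9 inner: GGGACCGGATCTCAGccttgaaaagatctt
FOXP1 long: CAGCAGCAGCAACAGgcacttcaggtggca
FOXP1 inner: CTCTTCATTTTCTCTgcacttcaggtggca
SLC39A11 long: CTGATGCCTCACTTGggtgcagcagaagac
SLC39A11 inner: CAGCCATGTGGAACTggtgcagcagaagac
DPYSL3 long: GGCCCCAAGGACAAGagtgaccgtctcctt
DPYSL3 inner: ATCCCGCGGATCACGagtgaccgtctcctt
RCAN1 long: GACGGCCTGTGCCGGgccaaatttgagtcc
RCAN1 inner: GAAAGTGAAACCAGGgccaaatttgagtcc
OLFM2 long: GGCCTGGCCGGACAGactctcttccagaac
OLFM2 inner: GCCTCTGAGAAAATCactctcttccagaac
In SEPT9, FOXP1 and SLC39A11 the long junction had the lower mean use in aggregate cells, and in DPYSL3, RCAN1 and OLFM2 the higher one. Their values and tests are given below.

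Libraries held 25341453 to 32020553 counts of spliced reads, of which 218742 to 245924 fell on the introns over 50 kb. TARDBP itself was at 2581 ± 42.5 CPM (counts per 1000000, mean ± SD, n = 3 libraries per group here and below) in aggregates and 7440 ± 218.3 CPM in diffuse, with reads of the endogenous gene and the transgene not separated. Of 12 bone and mesenchymal marker genes, 10 were above 1 CPM and BGLAP and TWIST1 were not. Their summed level was 3900 to 4230 CPM in aggregates and 5894 to 6127 CPM in diffuse. The summed level of 8 epithelial genes was 327 to 330.3 CPM against 699.3 to 761.8 CPM. The 8 neuronal genes summed to 270.2 to 291.8 CPM over both groups, and the 6 blood genes to 14.8 to 18.4 CPM in aggregates and 4.26 to 5.44 CPM in diffuse. KRT5 and ELAVL3 were under 1 CPM, and among the blood genes PTPRC, CD14, CD4 and HBB were too. The sums hide opposite moves (edgeR gene test, adjusted p under 0.05). Of the genes tested, 4 rose and 5 fell among 11 bone and mesenchymal ones, and 1 rose and 5 fell among 8 epithelial ones. Among 7 neuronal genes 3 rose and 4 fell, and among 3 blood genes 2 rose and 1 fell. SPP1 rose from 12.5 to 258.6 CPM while COL1A1 fell from 3211 to 1516 CPM, and CD68 rose from 2.64 to 14.0 CPM. The part of these differences in the results below was not tested.

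Unannotated and thinly covered junctions made up much of the set. A total of 1895 of the 3791 long introns (50.0%) were annotated introns of GENCODE 29, against 63.8% of the 140829 tested introns of 50 kb or less. A further 787 (20.8%) joined annotated sites of 1 gene in a combination that the annotation lacks, against 8.98% of the shorter introns. The rest had 1 unannotated site (794), 2 unannotated sites (220) or sites of 2 genes (95). The median long intron had 42 spliced reads over the 6 libraries, and 1579 (41.7%) had under 30, while the median shorter intron had 76. Percent use, the share of a cluster's counts taken by an intron in a library, was below 5 in both groups for 1873 long introns. Only 664 took over 50% of their cluster in diffuse cells. Of the annotated long introns, 1003 (52.9%) were the first intron of some transcript, against 34.5% of the annotated shorter introns.

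Percent use differed between the groups for 72 of the 3791 long introns (1.9%), with 45 lower and 27 higher in aggregates (edgeR quasi-likelihood intron test, each intron against its own cluster, adjusted p under 0.05 over all 144620 tested introns). Over all tested introns the called share was 2.05%, with 1.44% lower and 0.614% higher. The long introns' 1.19% lower and 0.712% higher are near that background, so they were not called more often than introns at large. In 70 of the 72 no aggregate library overlapped a diffuse one. The call and this count rest on the same reads, so the count is no separate support. The share without overlap over all long introns was not computed. Of those called, 28 moved by at least 10 percentage points, 18 down and 10 up, and 32 moved by under 5 points. Over all 3791 the median difference, aggregates minus diffuse, was -0.0585 points, with 90% of them between -8.31 and 6.99 points. The count was lower in fits with 1 library left out, which also have less power: it was 47 without aggregates replicate 1 and 42 without diffuse replicate 3. Clusters holding a long intron were called more often, 171 of 1953 (8.76%) against 5.02% of all tested clusters, but these clusters also had more introns, with a median of 5 against 3 in the other clusters. Among clusters of 2 or 3 introns the shares were 2.56% with a long intron and 2.71% without, and among those of 11 or more 20.2% and 18.2%. Without diffuse replicate 3 the number of called clusters was 113.

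**Figure D1:**
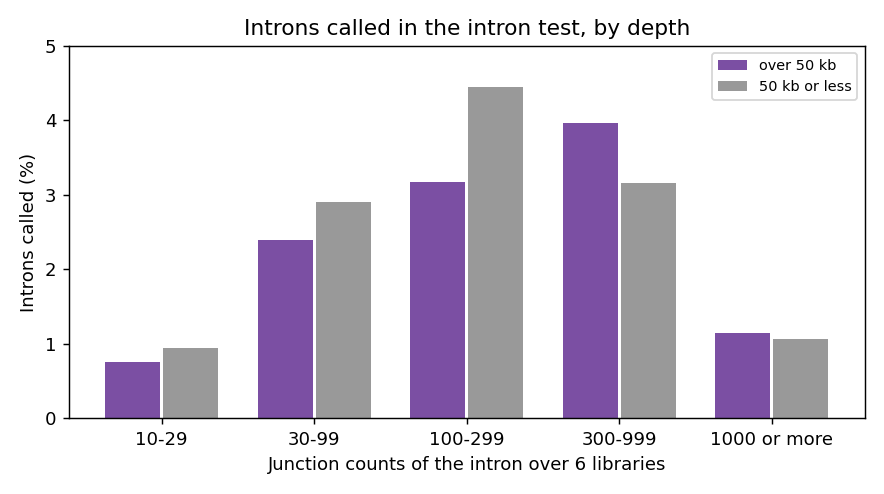
Bars give the percent of introns called in the intron test (y axis) by the intron's counts over 6 libraries (x axis), for introns over 50 kb (purple) and tested introns of 50 kb or less (grey). Both sets peak at middle depth, at 3.96% for 300 to 999 counts among long introns and 4.45% for 100 to 299 counts among shorter ones.

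The called share varied with depth in both sets. With 10 to 29 counts, 12 of 1579 long introns (0.76%) were called, against 0.941% of shorter ones. With 30 to 99 counts the shares were 2.39% and 2.91%, and with 100 to 299 counts 3.17% and 4.45%. With 300 to 999 counts they were 3.96% (19 of 480) and 3.16%. At 1000 or more counts they were 1.14% (4 of 350) and 1.07%. The long introns thus had the lower share in the bands under 300 counts and the higher one above, and these differences were not tested. Annotated long introns were called in 2.69% of cases and those joining annotated sites in an unlisted combination in 1.02%. For the shorter introns these values were 2.06% and 2.93%, and the differences were not tested.

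The largest falls and rises named below were chosen among called introns without overlap between groups, so their separation follows from the choice. In several of the largest losses, use moved from the long junction to one that starts at a first exon inside it. ELF1, an ETS family transcription factor, has an annotated first intron of 78555 bases (chromosome 13, 40982283 to 41060837 on hg38, minus strand). It took 44.0%, 42.1% and 36.7% of the cluster in aggregate libraries and 86.9%, 86.8% and 81.4% in diffuse libraries. Every aggregate library was far below every diffuse one, and the percent use fell from 85.0 ± 3.17 to 41.0 ± 3.82 (edgeR intron test, adjusted p = 0.00191). An inner intron of 36945 bases, from another annotated first exon to the same acceptor, rose from 10.2% ± 4.64 to 48.7% ± 5.57 (edgeR intron test, adjusted p = 8.95e-06). The gene as a whole was at 38.7 ± 1.3 CPM against 41.9 ± 1.2 CPM, a log2 fold change of -0.12 (edgeR gene test, adjusted p = 0.0142).

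PRKCE encodes protein kinase C epsilon. Its intron of 75690 bases (chromosome 2, 46010518 to 46086207, plus strand) joins 2 internal exons and was at 34.1%, 42.2% and 34.1% in aggregates and 66.5%, 58.6% and 67.0% in diffuse. The groups did not overlap, and percent use fell (edgeR intron test, adjusted p = 0.00249). An inner intron that starts at 46073961 from an annotated first exon rose from 10.4% ± 5.5 to 26.3% ± 3.81 (edgeR intron test, adjusted p = 0.00203). Another, which starts at 46073999 from a donor also annotated for a first exon, was at 35.1% ± 0.824 against 24.5% ± 1.68 without passing the test. Whether these donors belong to separate first exons was not looked up. ABLIM1 encodes an actin-binding LIM protein. Its first intron of 82328 bases (chromosome 10, 114601962 to 114684289, minus strand) was at 27.6%, 26.6% and 25.2% in aggregates and 54.9%, 54.4% and 51.0% in diffuse. It fell (edgeR intron test, adjusted p = 2.4e-08) while an inner intron of 29940 bases with a donor absent from GENCODE 29 rose from 39.8% ± 1.74 to 63.3% ± 2.45 (adjusted p = 5.17e-05). ABLIM1 counts also fell, from 550.9 ± 8.08 to 207.8 ± 4.57 CPM (log2 fold change -1.41, edgeR gene test, adjusted p = 1.37e-55).

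SEPT9 codes for a septin, a filament-forming GTPase, and its long and inner junctions are printed above. The intron of 94861 bases (chromosome 17, 77307198 to 77402058, plus strand) was at 26.1%, 21.4% and 28.2% in aggregates and 42.3%, 41.3% and 44.4% in diffuse. All aggregate libraries were lower, and percent use fell from 42.7 ± 1.6 to 25.2 ± 3.46 (edgeR intron test, adjusted p = 0.000267). The competing intron, itself 81710 bases long, starts at an inner annotated first exon and was at 72.7% ± 3.53 against 56.4% ± 0.682 (adjusted p = 0.0748, not past the threshold). FOXP1, a forkhead transcription factor, showed the same order for its intron of 85564 bases (chromosome 3, 71112638 to 71198201, minus strand). This intron was at 12.5%, 25.6% and 27.1% in aggregates and 35.4%, 41.6% and 52.0% in diffuse, a fall with wide spread (edgeR intron test, adjusted p = 0.0158). The inner intron of 17860 bases was at 77.5% ± 8.66 against 55.5% ± 7.79. LIMCH1, a LIM and calponin-homology protein of the actin cytoskeleton, fell at its intron of 74441 bases from 23.5% ± 3.51 to 10.7% ± 1.11 (chromosome 4, 41524479 to 41598919; adjusted p = 0.0246). Its main competitor starts at an inner first exon, spans 60569 bases and was at 82.5% ± 2.12 against 72.4% ± 6.18. The long LIMCH1 junction had 32, 38 and 33 reads in aggregates and 27, 28 and 30 in diffuse, so it lost share without losing reads. LIMCH1 itself rose from 52.7 ± 0.762 to 117.8 ± 2.29 CPM (log2 fold change 1.16, edgeR gene test, adjusted p = 2.12e-47).

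GULP1, an adaptor protein of the engulfment of dying cells, changed between 2 long introns that share an acceptor. The outer one, of 91596 bases (chromosome 2, 188292167 to 188383762, plus strand), was at 30.1%, 25.8% and 28.4% in aggregates and 61.9%, 45.2% and 65.5% in diffuse. It fell (edgeR intron test, adjusted p = 0.0189), and the one inside it, which starts at 188293113 from another donor annotated for a first exon, rose from 13.3% ± 3.59 to 39.0% ± 5.13 (adjusted p = 0.0052). In counts the outer junction had 133, 106 and 114 reads in aggregates and 26, 19 and 19 in diffuse, so both junctions had more reads in aggregates. GULP1 itself rose from 7.65 ± 0.496 to 79.0 ± 0.422 CPM (log2 fold change 3.37, edgeR gene test, adjusted p = 2.08e-73). Diffuse libraries had only 29 to 42 counts in this cluster. The RefSeq start of GULP1 lies 293 bases before the outer intron, and the 250 bases before that start (GRCh38.p14, chr2:188291624-188291873, plus strand) are shown to set this rising gene beside RCAN1 below.
GULP1 upstream: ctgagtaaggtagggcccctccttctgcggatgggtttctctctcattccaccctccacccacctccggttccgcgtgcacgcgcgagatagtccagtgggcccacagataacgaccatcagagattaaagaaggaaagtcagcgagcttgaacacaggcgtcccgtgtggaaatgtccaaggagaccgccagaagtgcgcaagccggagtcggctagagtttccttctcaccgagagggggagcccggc
None of the 4 short motifs searched for RCAN1 below was found in this window, so it has no capitals.

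MRTFA, a coactivator of serum response factor, lost most of the use of a long first intron. The intron of 70303 bases (chromosome 22, 40463287 to 40533589, minus strand) was at 3.86%, 4.0% and 2.29% in aggregates and 21.6%, 21.7% and 17.7% in diffuse. The groups lay far apart (edgeR intron test, adjusted p = 2.3e-10), and the reads behind them were 9, 10 and 6 against 78, 77 and 65. The intron around it, of 88819 bases, was at 73.2% ± 1.06 against 59.5% ± 3.16 without passing the test. CHD9, a chromodomain helicase, fell from 12.7% ± 5.63 to 0.529% ± 0.916 at an intron of 56657 bases (chromosome 16, 53099269 to 53155925; edgeR intron test, adjusted p = 0.0234), on 25 reads in all. NUTM2B-AS1, a long non-coding RNA with close copies in the genome, fell from 18.1% ± 5.6 to 5.93% ± 1.87 at a junction with an unannotated acceptor (chromosome 10, 79686462 to 79766270; adjusted p = 5.67e-05). Reads from near-identical copies could be split there.

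**Figure D2:**
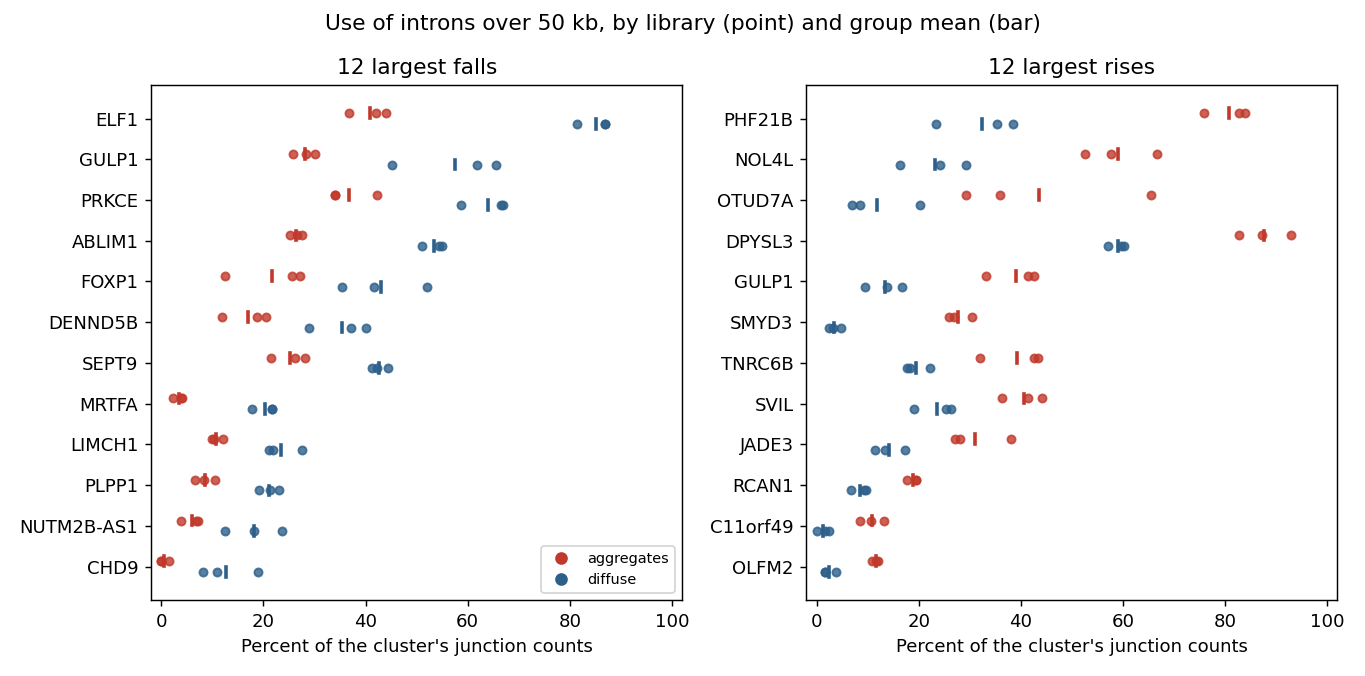
Points give the percent of the cluster's junction counts taken by an intron over 50 kb in each library (x axis) and bars the group mean, for the 12 largest falls (left) and the 12 largest rises (right), red for aggregates and blue for diffuse. These introns were chosen among called ones without overlap between groups, so the separation of red and blue points follows from the choice. ELF1 (41.0% against 85.0%) and PHF21B (80.8% against 32.3%) show the widest gaps.

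In PLPP1 and DENND5B the lost junction skipped coding exons. PLPP1 encodes a lipid phosphate phosphatase with a pair of alternative coding exons, and its intron of 66422 bases (chromosome 5, 55468150 to 55534571, minus strand) skips both. Percent use was 6.65, 8.41 and 10.6 in aggregates and 21.2, 19.2 and 23.0 in diffuse, with no overlap (edgeR intron test, adjusted p = 2.31e-05). Exon inclusion was computed as the average count of its 2 flanking introns, divided by the sum of that average and the skipping count. It was 83.5% ± 3.74 against 62.1% ± 2.62 for the exon of 152 bases (55475299 to 55475450). For the exon of 155 bases (55490960 to 55491114) it was 21.7% ± 6.13 against 18.8% ± 3.04, with overlapping libraries. DENND5B, a DENN domain protein that acts on Rab GTPases, has an intron of 94786 bases (chromosome 12, 31495920 to 31590705, minus strand) around an annotated exon of 66 bases. Percent use was 20.5, 18.7 and 11.8 in aggregates and 28.9, 37.1 and 40.0 in diffuse (edgeR intron test, adjusted p = 0.00696), and inclusion of the exon was 67.8% ± 7.92 against 43.7% ± 7.18. The tyrosine kinase gene ABL2, picked after its values were seen, had the same pattern for a coding exon of 63 bases (chromosome 1, 179133312 to 179133374). Its inclusion was 68.3% ± 5.5 against 52.1% ± 3.64, and the skipping intron of 97759 bases fell from 14.4% to 7.4% (edgeR intron test, adjusted p = 0.000571).
These exons are shown because they are what the long junctions leave out, with each TGTG, the shortest UG repeat of the TDP-43 binding motif, in capitals.
PLPP1 exon of 152 bases: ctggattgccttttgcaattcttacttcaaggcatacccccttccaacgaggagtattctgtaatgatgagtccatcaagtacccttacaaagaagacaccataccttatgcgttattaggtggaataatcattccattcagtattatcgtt
PLPP1 exon of 155 bases: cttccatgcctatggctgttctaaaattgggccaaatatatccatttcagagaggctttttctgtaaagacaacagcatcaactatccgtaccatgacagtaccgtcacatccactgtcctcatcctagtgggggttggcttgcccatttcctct
DENND5B exon of 66 bases: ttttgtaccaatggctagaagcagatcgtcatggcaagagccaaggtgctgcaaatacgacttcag
ABL2 exon of 63 bases: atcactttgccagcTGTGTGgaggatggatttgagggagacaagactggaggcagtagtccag
On the transcribed strand TGTG starts at 2 overlapping positions in the ABL2 exon and at none in the other exons. Among all internal coding exons within 10% of the same length, 25.4% held it for ABL2, 26.6% for DENND5B and 54.3% and 55.1% for the PLPP1 exons. The exons of 66 and 63 bases keep the reading frame by length, and those of 152 and 155 bases do not by themselves.

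Some other long introns that skip coding exons moved in the same sense at lower use, and were also picked after their values were seen. SYT14, a synaptotagmin family gene, fell from 9.5% to 2.5% at its skipping intron (edgeR intron test, adjusted p = 0.00663), with exon inclusion of 95.1% ± 0.704 against 82.6% ± 7.67. SLC25A13, a mitochondrial aspartate-glutamate carrier, fell from 3.15% to 0.409% (adjusted p = 1.75e-05), with inclusion of 98.0% ± 1.07 against 85.7% ± 2.33. COA1, a mitochondrial respiratory assembly factor, went the other way, at an inner exon that was not among those found to be wholly coding. Its intron of 80776 bases rose from 12.6% to 18.2% (edgeR intron test, adjusted p = 0.00527), and inclusion of an inner annotated exon of 101 bases was 34.3% ± 2.68 against 48.4% ± 2.14.

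Among the largest rises, RCAN1, DPYSL3, JADE3 and OLFM2 gained use of a long junction from a distal first-exon donor, beside a junction from an inner first-exon donor to the same acceptor. In JADE3 these introns start close together, at 46912341 and 46912720, and whether the donors belong to separate first exons was not looked up. RCAN1 encodes an inhibitor of the phosphatase calcineurin. Its first intron of 91049 bases (chromosome 21, 34523711 to 34614759, minus strand) was at 19.5%, 19.5% and 17.7% in aggregates and 9.32%, 6.69% and 9.67% in diffuse. The groups did not overlap, and percent use rose (edgeR intron test, adjusted p = 1.74e-06). The reads themselves were 93, 89 and 78 against 128, 93 and 140, so the long junction did not gain reads. The inner first exon, 2952 bases from the shared acceptor, was at 77.6% ± 2.59 against 90.1% ± 0.99 of a cluster that shrank from 1374 to 1448 counts per library to 440 to 477. RCAN1 counts fell from 219.4 ± 4.47 to 73.8 ± 4.0 CPM (log2 fold change -1.57, edgeR gene test, adjusted p = 6.55e-58). The RefSeq start lies 354 bases before the long intron, and the 250 bases before it (GRCh38.p14, chr21:34615114-34615363, minus strand) belong to the distal start.
RCAN1 upstream: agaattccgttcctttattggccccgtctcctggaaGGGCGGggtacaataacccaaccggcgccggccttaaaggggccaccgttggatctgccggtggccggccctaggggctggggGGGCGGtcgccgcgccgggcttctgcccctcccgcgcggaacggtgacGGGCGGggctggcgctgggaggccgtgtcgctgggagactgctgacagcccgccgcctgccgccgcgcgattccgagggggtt
Capitals mark CCGCCC or its reverse complement GGGCGG, present 3 times on either strand, and 42.6% of the 35116 RefSeq windows of this length hold at least 1. 3 other motifs were searched on both strands and are not in this window. They were the AP-1 motif TGACTCA, found in 4.2% of windows, the TATA box motif written as TATAAA, found in 10.7%, and the E-box motif written as CACGTG, found in 6.34%.

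DPYSL3, a collapsin response mediator protein of the cytoskeleton, gained use of its first intron of 84514 bases (chromosome 5, 147424964 to 147509477, minus strand). It was at 87.2%, 92.9% and 82.7% in aggregates and 57.0%, 59.6% and 60.3% in diffuse (edgeR intron test, adjusted p = 0.00328). The inner junction printed above fell from 26.9% ± 2.82 to 9.17% ± 4.27 (adjusted p = 6.67e-06). The long junction also gained reads, at 294, 369 and 311 against 142, 170 and 129. SMYD3, a lysine methyltransferase, rose from 3.52% ± 1.24 to 27.8% ± 2.33 at an intron of 62201 bases (chromosome 1, 246355095 to 246417295, minus strand; edgeR intron test, adjusted p = 8.79e-10). It had 150, 194 and 139 reads in aggregates and 3, 5 and 2 in diffuse. The next intron downstream, of 19556 bases, was at 64.5% ± 1.17 against 88.7% ± 3.83. SMYD3 rose from 18.9 ± 0.478 to 43.2 ± 2.01 CPM (log2 fold change 1.19, edgeR gene test, adjusted p = 2.92e-40).

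PHF21B and NOL4L gained use of a long junction over shorter ones from the same donor. PHF21B, a PHD finger gene, was at 75.8%, 82.8% and 83.9% in aggregates and 35.3%, 23.3% and 38.5% in diffuse at its intron of 88054 bases (chromosome 22, 44920491 to 45008544, minus strand; edgeR intron test, adjusted p = 0.0389). An inner intron from the same donor to an annotated last exon fell from 37.2% ± 14.8 to 4.31% ± 1.87 (adjusted p = 0.00773). NOL4L was at 52.6%, 57.7% and 66.7% against 24.1%, 16.4% and 29.2% at an intron of 56656 bases (chromosome 20, 32527914 to 32584569, minus strand; edgeR intron test, adjusted p = 0.00702). An inner intron from the same first exon to an unannotated acceptor fell from 21.8% ± 5.18 to 2.45% ± 2.13 (adjusted p = 0.00283). An unannotated intron just downstream of that acceptor, from 32564438 to 32565623, fell too, from 19.6% ± 3.95 to 3.89% ± 1.35 (edgeR intron test, adjusted p = 0.0387). The intron from the same donor to an annotated last exon was at 20.5% ± 9.19 against 24.5% ± 3.68 without passing the test. The long NOL4L junction had 30, 15 and 26 reads against 40, 26 and 47, so it gained share without gaining reads. NOL4L was at 37.5 ± 1.68 against 99.3 ± 0.88 CPM. OTUD7A, a deubiquitinase gene of low level, was at 36%, 65.4% and 29.2% against 8.45%, 20.3% and 6.94% (chromosome 15, 31570198 to 31655095; adjusted p = 0.0437), on 24 to 79 cluster counts per library. Of the inner OTUD7A junctions to unannotated acceptors, 2 were lower in aggregates, at 18.8% ± 12.3 against 45.4% ± 2.95 and 8.22% ± 8.34 against 33.6% ± 8.91. The other, from 31637949 to 31649678, was higher, at 12.2% ± 7.5 against 4.12% ± 2.54, and none of them passed the test.

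In TNRC6B, SVIL, JADE3 and OLFM2 a pair of long introns shared an acceptor, and one gained on the other. TNRC6B, a scaffold of microRNA silencing, was at 39.3% ± 6.22 against 19.5% ± 2.45 at an intron of 89832 bases (chromosome 22, 40156183 to 40246014; edgeR intron test, adjusted p = 0.00207), with an inner first exon at 59.5% ± 6.23 against 78.2% ± 2.51. SVIL, which encodes the actin-binding protein supervillin, rose from 23.5% ± 3.99 to 40.7% ± 4.0 at an intron of 65107 bases (chromosome 10, 29569313 to 29634419; adjusted p = 0.0446). There the competitor was the longer one, of 88656 bases, at 56.5% ± 3.74 against 75.2% ± 3.52. JADE3, a PHD finger protein of a histone acetyltransferase complex, rose from 14.1% ± 2.97 to 31.1% ± 6.08 (X chromosome, 46912341 to 46984883; adjusted p = 0.0347). OLFM2, a secreted olfactomedin, rose from 2.4% ± 1.3 to 11.6% ± 0.587 at its distal first exon (chromosome 19, 9860795 to 9936303; edgeR intron test, adjusted p = 0.0203), and the inner first exon was at 85.7% ± 2.53 against 97.3% ± 1.15. C11orf49 rose from 1.32% ± 1.21 to 10.8% ± 2.4 at a junction with an unannotated donor (chromosome 11, 46927396 to 46987207; adjusted p = 0.00149).

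Across the 72 called long introns, the intron of the cluster that moved most in the opposite direction lay inside the long one for 35 of 45 falls and 18 of 27 rises. It shared the acceptor in 19 of those 35 falls and began at an annotated first exon in 12 of the 19. Among the 18 rises it shared the acceptor in 13 and began at an annotated first exon in 11. These first exons include some that are internal in another transcript, and without them 10 falls and 7 rises remain. A longer intron that contains the long one took this place for 4 falls and 3 rises. The long intron itself left an annotated first exon, with the same exons included, in 25 of the 45 falls and 13 of the 27 rises. Among the annotated called long introns 32 of 51 (62.7%) were a first intron of some transcript, against 52.9% of all annotated long introns, and for shorter introns these shares were 38.9% and 34.5%. Of all long introns 90.4% contain other introns, and the opposite mover was not looked up for uncalled ones. These counts describe the called introns and were not tested.

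Losses to shorter introns inside were tested for 3157 of the 3426 long introns that contain others, as the summed inner reads against the long intron's own reads. The balance changed for 31 (0.982%), with the inner share higher in aggregates for 17 and lower for 14 (edgeR quasi-likelihood test of the pair, adjusted p under 0.05 over 69499 introns of any length). Over all those introns 1.09% were called, 0.683% with a higher and 0.412% with a lower inner share. The long introns' 0.538% and 0.443% are near that background. Of the 31, 21 were also called in the intron test. Leaving out any 1 of the 6 libraries left 8 to 11 calls.

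**Figure D3:**
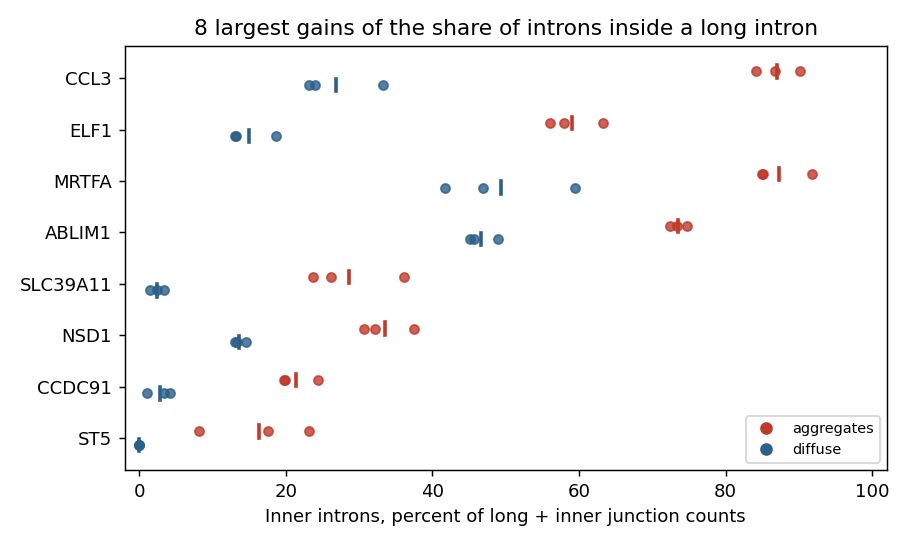
Points give, in each library, the reads on introns inside a long intron as a percent of inner and long reads together (x axis), with bars for group means, red for aggregates and blue for diffuse, for the 8 largest gains among introns that passed the pair test. The groups do not overlap in any of the 8 genes, and diffuse ST5 libraries are at 0. These genes were chosen as the largest gains that passed a test on the same reads, so the separation is no separate support. The share without overlap over all tested pairs was not computed.

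SLC39A11, a zinc transporter gene, had such a gain. Inner reads took 26.2%, 23.7% and 36.1% in aggregates and 1.38%, 2.41% and 3.3% in diffuse at its intron of 83680 bases (chromosome 17, 72947876 to 73031555, minus strand; edgeR pair test, adjusted p = 0.00253). The inner reads were 73, 55 and 73 against 2, 4 and 6, while the long junction had 206, 177 and 129 against 143, 162 and 176. The inner intron, which starts at an annotated first exon, rose (edgeR intron test, adjusted p = 1.51e-10), and the long one did not pass that test (adjusted p = 0.088). CCDC91, a protein of trans-Golgi transport, gained an unannotated donor inside its intron of 58749 bases (chromosome 12, 28391412 to 28450160). The inner share was 21.4% ± 2.61 against 2.87% ± 1.67 (edgeR pair test, adjusted p = 0.0049). The intron from that donor, at 28416137, rose from 0.0466% ± 0.0806 to 10.2% ± 1.78 of the cluster (edgeR intron test, adjusted p = 3.14e-19).

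NSD1, a histone H3 lysine methyltransferase, gained use of inner junctions. An unannotated inner exon of 98 bases (177136873 to 177136970) had an inclusion of 18.0% ± 2.6 in aggregates against 5.16% ± 0.338 in diffuse. The inner share at its intron of 55853 bases (chromosome 5, 177136031 to 177191883) was 33.5% ± 3.57 against 13.6% ± 0.721 (edgeR pair test, adjusted p = 0.0291), and a junction of 842 bases to an annotated last exon rose from 5.18% ± 0.687 to 16.4% ± 2.48 (edgeR intron test, adjusted p = 2.7e-08). ST5, a DENN domain gene, had inner reads of 4, 15 and 10 in aggregates and 0 in each diffuse library (edgeR pair test, adjusted p = 0.0263). A count of 0 allows each of these inner introns up to 0.276% of the diffuse counts of the cluster, by counting error alone. CCL3, a chemokine gene at 1.25 ± 0.101 CPM in aggregates and 0.331 ± 0.11 CPM in diffuse, had a junction of 93226 bases from an unannotated donor. Its use was 12.5% ± 2.9 against 67.9% ± 3.13 (edgeR intron test, adjusted p = 5.15e-05), and the inner share was 87.0% ± 3.0 against 26.8% ± 5.67 (edgeR pair test, adjusted p = 0.00344). All inner reads were on the annotated first intron of 688 bases, and diffuse libraries had only 14 to 30 counts in the cluster. CCL3 has near-identical copies in its gene cluster, so where these reads belong is uncertain. ELF1, ABLIM1 and MRTFA, described above, were also among the 8, at 59.0% ± 3.82 against 15% ± 3.17, 73.5% ± 1.22 against 46.6% ± 2.13 and 87.3% ± 3.89 against 49.3% ± 9.09. The inner reads were 173, 271 and 199 against 325, 349 and 348 in ABLIM1 and 51, 57 and 67 against 69, 55 and 95 in MRTFA. In ABLIM1 and MRTFA the inner introns thus gained share without gaining reads. The pair test lost ABLIM1 and NSD1 without any 1 of the 6 libraries. It lost MRTFA without any aggregates library or diffuse replicate 1 or 2, and ST5 without aggregates replicate 2 or 3 or any diffuse library.

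In the intron test part of the named calls was also lost when 1 library was left out. A fit with fewer libraries has less power, so these losses do not show that a particular library carried a call. The calls for ELF1, ABLIM1, PRKCE, SEPT9, MRTFA, PLPP1, NUTM2B-AS1, DPYSL3, SMYD3, TNRC6B, RCAN1 and C11orf49 held without each library in turn. Those for SVIL, JADE3, PHF21B and LIMCH1 were lost without any 1 of the 6 libraries. OLFM2 and OTUD7A were lost without aggregates replicate 1 or 2 or diffuse replicate 1 or 3, and OLFM2 also without aggregates replicate 3. CHD9 was lost without aggregates replicate 1 or 3 or diffuse replicate 1 or 3. FOXP1 was lost without aggregates replicate 1 or diffuse replicate 2 or 3, and DENND5B without aggregates replicate 3 or diffuse replicate 3. The GULP1 calls were lost, one or both, without aggregates replicate 2 or 3 or diffuse replicate 1 or 3, and NOL4L without aggregates replicate 3 or diffuse replicate 2.

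By gene list, the calls are given beside the 1.9% called over all long introns and 2.05% over all tested introns, and lists this small say little about a difference from either. Of 3 genes on a list of known TDP-43 splicing targets that hold a long intron, none of the 4 introns was called, and of 26 long introns in 8 neural adhesion and synapse genes none was. The cell adhesion and matrix list had 1 of 39 called (2.56%), COL12A1, a fibril-associated collagen, at 0.686% ± 0.119 against 1.81% ± 0.698 (edgeR intron test, adjusted p = 0.00654), a call that did not hold when aggregates replicate 1, aggregates replicate 2 or diffuse replicate 3 was left out. The list of GTPase regulators and cytoskeletal genes had 1 of 63 (1.59%), LIMCH1, and the transcription and chromatin list 2 of 109 (1.83%), FOXP1 and SMYD3. The signalling list had 4 of 79 (5.06%), PRKCE, INPP4B and 2 introns of PTK2. INPP4B, a phosphoinositide phosphatase, rose from 1.76% ± 0.461 to 5.41% ± 1.09 at an unannotated donor (adjusted p = 0.00733), a call lost without aggregates replicate 3 or diffuse replicate 1. PTK2, the focal adhesion kinase, rose from 1.44% ± 0.443 to 5.52% ± 1.07 at a first intron of 52401 bases (edgeR intron test, adjusted p = 7.56e-11) and from 1.67% ± 0.479 to 4.62% ± 0.358 at an intron of 57896 bases (adjusted p = 2.17e-06). The list of common fragile site genes had 1 of 23 (4.35%), SMYD3 again. The median difference in percent use per list ran from -0.444 points (TDP-43 targets) to 0.159 points (fragile sites), beside -0.0585 over all long introns.

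Reads over long introns made up a smaller part of all spliced reads in aggregate cells. They were 0.771%, 0.768% and 0.771% in aggregates and 0.863%, 0.868% and 0.884% in diffuse. The aggregate libraries lay close together and below all diffuse ones. The share was thus 11.7% lower, and no test was made because it sums over the whole set. Other lengths differed too. The share on introns of 10 to 30 kb was 8.02% lower, on 30 to 50 kb 14.7% lower, on 50 to 70 kb 8.64% lower and on 70 to 100 kb 16.6% lower, while the share on introns of up to 1 kb was 2.69% higher. So the difference was not particular to introns over 50 kb. Within their own clusters the long introns took 15.5% to 15.7% of reads in aggregates and 16.6% to 16.9% in diffuse, and their clusters took 4.9% to 4.96% of all spliced reads against 5.19% to 5.25%.

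**Figure D4:**
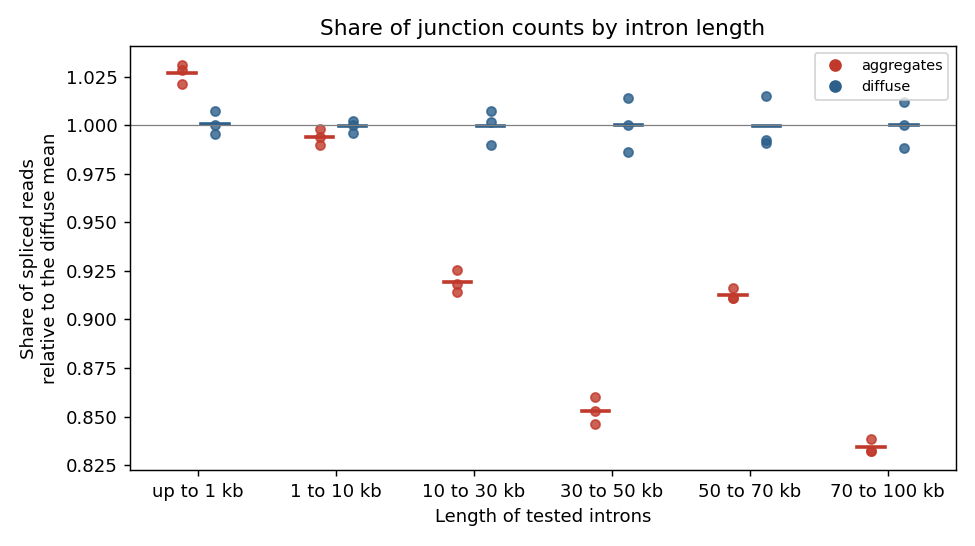
Points give each library's share of all spliced reads on tested introns of a length class (x axis), divided by the mean of the diffuse libraries (y axis, not starting at 0), with bars for group means. The aggregate points (red) lie above the diffuse ones (blue) for introns of up to 1 kb and below them in each class over 10 kb, by 8.02% to 16.6%.

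The genes that hold long introns were lower as a group. Of 1663 such genes, 1543 passed the filter on low counts in the gene table, and 1298 of these changed (84.1%), 868 down (56.3%) and 430 up (27.9%; edgeR quasi-likelihood gene test, adjusted p under 0.05). Of all 17839 genes tested 75.4% changed, 37.6% down and 37.8% up. Among the 11290 tested genes with a tested annotated intron 83.2% changed, 41.3% down and 41.9% up, so the hosts stood near these in the share changed and apart in its direction. The median log2 fold change was -0.21 in host genes and 0.01 in both of the wider sets. When genes were grouped by their longest annotated tested intron, the median was 0.12 up to 10 kb, -0.06 for 10 to 30 kb, -0.16 for 30 to 50 kb and -0.24 over 50 kb. Host genes took 12.4% to 12.5% of all gene counts in aggregates and 13.9% to 14.1% in diffuse. In a bulk sample, fewer cells with a transcript and less of it per cell cannot be told apart. Direction differed between single hosts: among hosts of called long introns tested, 33 of 59 fell and 21 rose. By list, the genes with a long intron that fell were 28 of 36 in transcription and chromatin, 18 of 24 in GTPase and cytoskeletal genes, 11 of 15 in adhesion and matrix, 8 of 8 in the neural list, 3 of 3 TDP-43 targets, 16 of 28 in signalling and 4 of 9 in fragile site genes. The median log2 fold change per list ran from -0.78 in TDP-43 targets to -0.18 in signalling and -0.09 in fragile site genes.

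**Figure D5:**
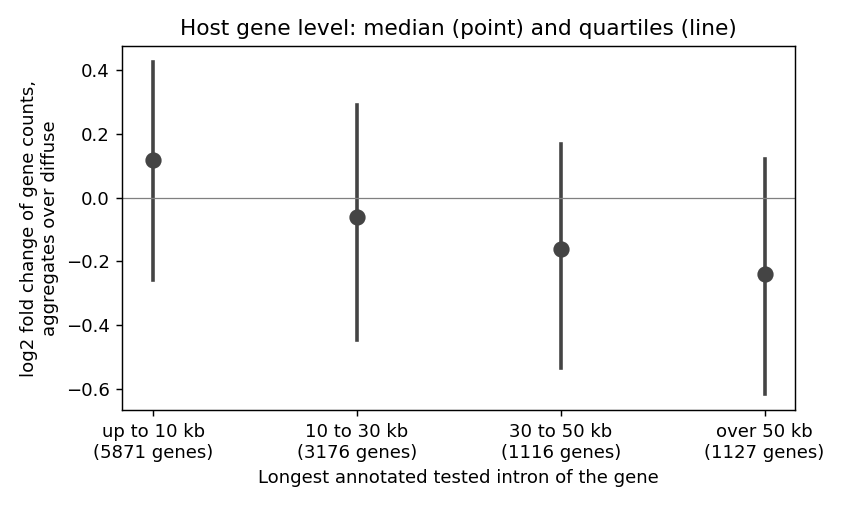
Points give the median and lines the quartiles of the log2 fold change of gene counts, aggregates over diffuse (y axis), for genes grouped by their longest annotated tested intron (x axis). The median runs from 0.12 to -0.24, and the quartiles overlap between all classes.

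None of the 5 most deeply read long introns passed the intron test. ACTN1, which encodes the actin crosslinker alpha-actinin, was at 52.0% ± 0.366 against 51.6% ± 0.532 (17348 reads), and APP, the amyloid precursor protein gene, at 30.5% ± 1.33 against 31.2% ± 0.631 (17759 reads). EIF3H, a translation initiation factor subunit, was at 18.5% ± 0.572 against 18.1% ± 0.121, and COL4A2, a basement membrane collagen, at 99.9% ± 0.18 against 99.8% ± 0.154. EDIL3, an integrin ligand, was at 94.3% ± 0.672 against 97.1% ± 0.24 with no overlap, with an edgeR adjusted p of 1.0. Its cluster was called all the same (edgeR Simes test, adjusted p = 1.32e-06). An inner intron to an annotated last exon rose from 1.38% ± 0.168 to 4.11% ± 0.287 (edgeR intron test, adjusted p = 6.1e-07). The long EDIL3 intron passed in limma voom (adjusted p = 7.6e-05) and in DESeq2 (adjusted p = 0.00724).

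The longest introns in the set came close to 100 kb and were thinly read. The longest, of 99975 bases in the non-coding gene AL365295.1, had 72 reads and was at 63.9% ± 12.7 against 43.0% ± 16.8 (edgeR intron test, adjusted p = 0.782). The next 4, in AC011330.1, LINC00623, ZDHHC11 and SOBP, had 10 to 24 reads each and were not called. AC011330.1 and ZDHHC11 join sites of 2 genes, and copies of LINC00623 and ZDHHC11 elsewhere in the genome make these junctions uncertain. At the lower edge the introns just inside the rule were one of 50000 bases in TCF4, with 10 reads and 0.775% ± 1.34 against 1.24% ± 2.15, one of 50007 bases in ZNF131 at 0.485% ± 0.218 against 0.786% ± 0.622 and one in no gene at 6.17% ± 1.61 against 7.78% ± 8.11. Just outside it were another TCF4 intron of 49997 bases at 1.38% ± 1.19 against 4.77% ± 2.93, one in FLG-AS1 at 24.8% ± 3.27 against 14.5% ± 7.16 and one in GATAD2A at 1.95% ± 0.79 against 3.3% ± 1.62.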

How the data were processed

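The data were 6 polyA, stranded RNA-seq libraries. The submitters' processing notes name hg38, STAR 2.7.11a and fastp 0.23.2. Which program counted genes, and which LeafCutter release was run, is not given in the sources used here. Deposited by the authors were raw whole-number counts per gene and per LeafCutter intron. All deposited introns have at least 10 counts, and none spans over 100 kb. Introns were placed by GENCODE 29, with the first and last intron base counted from 1. Percent use is an intron's count over its cluster's.

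Introns were tested with edgeR 4.0.16 (diffSpliceDGE; Simes test for clusters), pairs with library terms and a part by group term, and genes with filterByExpr and TMM scaling, in R 4.3.3, with Benjamini-Hochberg adjustment at 0.05 over all features. The scripts were tested on simulated data. Alternatives used DESeq2 1.42.0, limma 3.58.1, RLE scaling, other minimums and left-out libraries. Named introns were the 12 largest falls and rises among called introns with no overlap and 20 cluster counts in every library, the 8 largest inner gains among pairs called, 5 longest, 5 deepest, up to 4 per list and 3 on each side of 50 kb. The members and lists were chosen with earlier results of these data known. Reads carry no molecular identifiers. Intron sequence was not used here; exon and junction sequence comes from GENCODE 29 transcripts, and upstream sequence from RefSeq (GRCh38.p14).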

Additional observations from a re-analysis of the deposited data

How the results depend on the processing

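RLE scaling, a minimum of 20 counts in every library, a minimum of 30 counts, limma voom (107, 54 of them shared) and DESeq2 (68, 44 shared) kept the count of called long introns within 1.5 times of 72, with 42 to 56 when 1 library was left out. A length over 30 kb gave 190 (of 8969 introns). The count of pairs went from 31 to 15 with a replicate block, to 8 to 11 without 1 library, to 109 with a minimum of 30 counts (of 1485), to 66 with DESeq2 and to 64 for lengths over 30 kb; all 31 were among the 66. Called clusters numbered 171, 113 to 131 without 1 library, 272 with the cluster F test, 301 for lengths over 30 kb and 113 with annotated long introns alone; the last 2 settings change how many clusters are counted (3771 and 1352). For the other changes the cause was not tested. Host gene counts stayed within 1264 to 1306, and the difference in the share of spliced reads between -0.106 and -0.094 points. Of 29 named called introns, 18 to 23 were still called without 1 library, 22 with DESeq2 and 28 with voom, and none reversed.

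Whether the replicate numbers pair the samples was not settled. Same-numbered libraries deviated together at correlations of 0.0362, 0.0831 and 0.0602, which are small, but each library correlated best with its own number. The other pairs of libraries ran from -0.0596 to -0.00204. With 3 libraries per group, centred on the group mean, this check cannot decide it. With the replicate block 58 long introns, 15 pairs, 151 clusters and 1306 host genes were called, and the intron calls of CHD9, OTUD7A and SVIL and the pair calls of ABLIM1, NSD1 and ST5 were lost. No intron spans over 100 kb and none has under 10 counts, so the alternatives of a length over 100 kb, of no minimum and of percents over kept introns gave no new value. With 41.7% of the long introns under 30 counts, small changes in these were not detectable at this depth.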
